A study of Glycine max with 20 samples.

Results

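The genes described here were those whose transcripts in seeds of the soybean line DN47 were most concentrated at 18 days after flowering (DAF), the earliest of 5 stages sequenced. Of 57274 genes measured, 54174 carried a GLYMA identifier, and 6064 of these had a mean of 20 RPKM or more at 18 DAF in DN47. RPKM is the number of reads scaled to the length of the gene in kilobases and to the total number of reads counted in the library. These 6064 genes were ranked by the 18 DAF mean divided by the largest mean of any other stage plus 1 RPKM, and the 150 genes ranked first, or 2.47% of them, were taken. The DN47 values therefore chose the members, and they are given as a description with no test. The measurements in the second line, cgy-2-NIL, were not used by the rule.

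The second line, cgy-2-NIL, is a near-isogenic line that carries the cgy-2 allele, which removes the α-subunit of the storage protein β-conglycinin, in the DN47 background. Its donor segment is a single introgression on chromosome 20. DN47 is the recurrent parent and holds all storage protein subunits. Field-grown developing seeds of each line were sequenced with 2 biological replicates at each stage (18, 25, 35, 50, or 55 DAF), which gave 20 libraries in 10 groups of 2. Several lines of this kind were bred from 1 backcross family, and which of them was sequenced is not given in the sources used here. No other treatment was applied, and both lines share the DN47 background.

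Soybean seeds early in development are still dividing and forming their tissues, and the seed coat and endosperm make up much of the seed. The cotyledons then expand and fill with storage protein and oil, and the seed finally dries and matures. Genes that are active only early are commonly tied to cell division, to the patterning of tissues, and to the seed coat and endosperm, which shrink or are consumed as the embryo fills the seed. Whole seeds were measured, so fewer cells of a type and less RNA per cell cannot be told apart. The tables name these genes by identifier only, and 0 of the 150 identifiers matched the reference annotation or the tables of the paper, so no gene names or functions are given.

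Libraries held from 18492047 to 30555808 counts each. The 2 libraries at 18 DAF agreed closely over the members, with a median absolute log2 ratio between replicates of 0.139 in cgy-2-NIL and 0.153 in DN47. The stage was looked at in 5 storage genes, picked from the 18 cupins of the paper. The paper gives their levels from these same libraries. Their course was therefore known beforehand and is no independent check of the stage. Their means at 25 DAF were between 93.8 and 3398 RPKM in cgy-2-NIL and between 527 and 7831 RPKM in DN47. At 18 DAF they were at most 1.16 RPKM in cgy-2-NIL and 1.71 RPKM in DN47. Other genes of that list did not all take this course, and their counts are given below. The RPKM values divide by the total count only, and the TMM factors that edgeR fitted to the cgy-2-NIL libraries lay between 0.675, in a library of 50 DAF, and 1.56, in both libraries of 18 DAF. The log2 fold changes of the tests below include these factors and are therefore less negative than the RPKM values at the late stages.

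The members differed widely in level at 18 DAF. Their median was 61.5 RPKM in cgy-2-NIL (1.27 to 7745) and 51.9 RPKM in DN47 (20.4 to 6305). Together they held 5.22% and 5.41% of all counts in the 2 cgy-2-NIL libraries at 18 DAF, and 4.57% and 4.32% in the DN47 libraries. At 25 DAF these shares were 0.959% and 1.01% in cgy-2-NIL, and 0.622% and 0.762% in DN47. At 55 DAF they were 0.0272% and 0.0190% in cgy-2-NIL, and 0.0190% and 0.0195% in DN47.

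**Figure D1:**
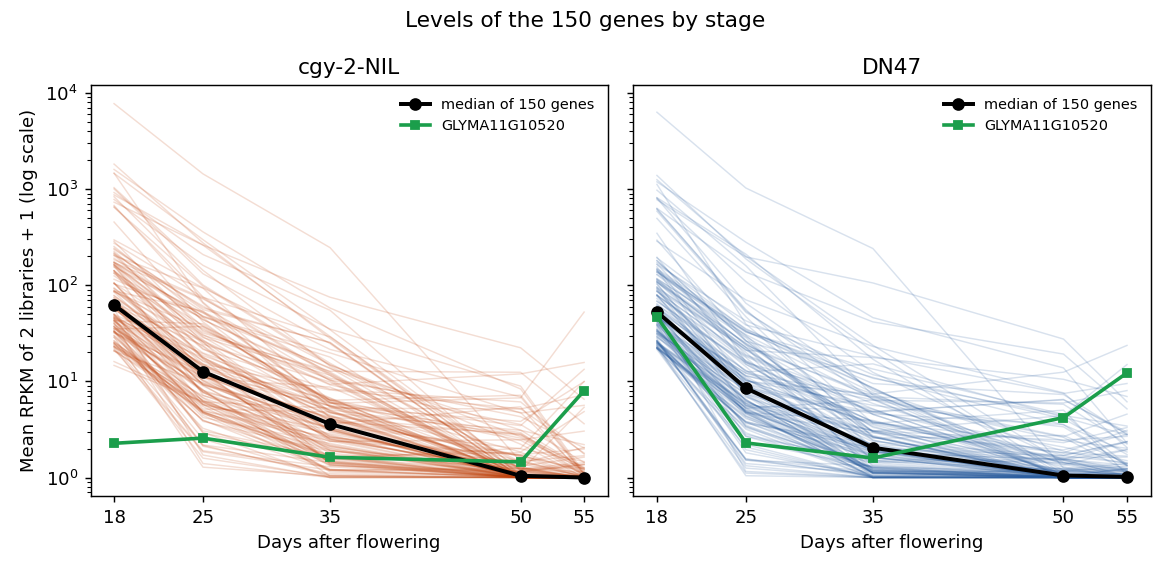
Mean RPKM of 2 libraries plus 1, on a log scale, of each of the 150 genes (thin lines) against days after flowering in cgy-2-NIL (left) and DN47 (right), with the median over the genes in black. The median falls from stage to stage in both lines, and GLYMA11G10520 (green) starts at 1.27 RPKM in cgy-2-NIL and at 46.1 RPKM in DN47.

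Most of the fall took place in the first week of sampling. In cgy-2-NIL the median member stood at 19.3% of its 18 DAF level at 25 DAF and at 3.33% at 35 DAF. In DN47, where the rule set the pattern, it stood at 14.4% and 1.54% at the same stages. At 50 DAF most members were at or near the limit of detection in both lines, and no median is given. In cgy-2-NIL 148 of the 150 members had their highest mean at 18 DAF, and in 147 both libraries of 18 DAF lay above all 8 later libraries. The exceptions in peak stage were GLYMA20G28890, highest at 25 DAF, and GLYMA11G10520, highest at 55 DAF. The mean was lower or level at every step in 121 members in cgy-2-NIL and in 111 in DN47. A peak at 18 DAF was common among genes of this level. In DN47, 3816 of the 6064 genes ranked had an 18 DAF mean above the largest later mean plus 1 RPKM. No share over all genes is given here for the counts in cgy-2-NIL or for the members lower or level at every step in DN47. These counts therefore describe the members and do not set them apart from other genes. The tests below give a share over all genes for each stage.

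Transcripts of many members were no longer detected late in development. Genes with at most 3 counts in both libraries of a stage are called at the floor of detection here. From the first to the last stage this held for 0, 0, 9, 82, and 108 members in cgy-2-NIL, and for 0, 2, 28, 83, and 95 members in DN47. Among the other genes with 20 RPKM or more at 18 DAF in DN47, 5.38% were at the floor at 55 DAF in cgy-2-NIL and 3.30% in DN47. Levels at or under this floor cannot be ordered at this depth.

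**Figure D2:**
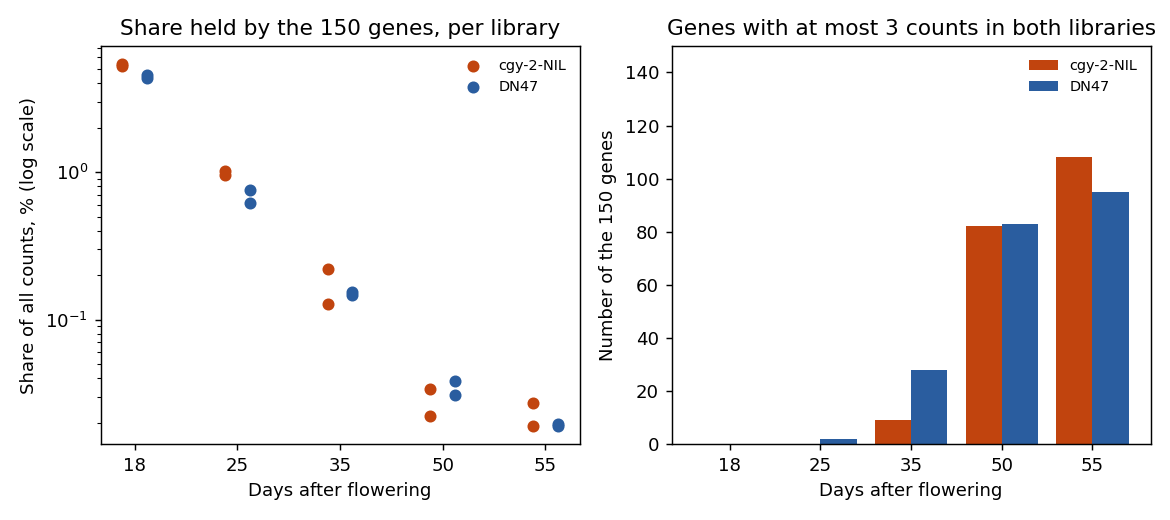
Left, share of all counts held by the 150 genes in each library, in percent on a log scale, by days after flowering. Right, number of the 150 genes with at most 3 counts in both libraries of a stage. The share falls from between 4.32% and 5.41% at 18 DAF to under 0.03% at 55 DAF, and the number at the floor reaches 108 in cgy-2-NIL and 95 in DN47.

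The member ranked first was GLYMA09G37320, a short gene of 294 bases. It had 65.0 and 45.9 RPKM at 18 DAF in cgy-2-NIL, against 52.1 and 53.7 RPKM in DN47. At 25 DAF it had 0.411 and 1.01 RPKM in cgy-2-NIL, against 0.314 and 0 RPKM in DN47, and from 35 DAF on it had no count in any library of either line. Its neighbour by identifier, GLYMA09G37331, ranked sixth and did the same, with 43.5 and 35.7 RPKM in cgy-2-NIL and 41.6 and 41.7 RPKM in DN47 at 18 DAF and no count from 35 DAF on. The levels of both genes overlapped between the lines at 18 DAF.

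GLYMA10G40300 ranked second and was also among the most abundant members. It had 1339 and 1590.2 RPKM in the 18 DAF libraries of cgy-2-NIL and 63.4 and 67.9 RPKM in those of 25 DAF. In cgy-2-NIL the fall to 25 DAF was -4.34 on the log2 scale (standard error 0.31, edgeR quasi-likelihood adjusted p = 2.59e-05), and at 50 DAF it was at the floor and at least 9877-fold lower than at 18 DAF. The other members of the first 10 were GLYMA18G06840, GLYMA19G01280, GLYMA02G42614, GLYMA08G15960, GLYMA20G03630, GLYMA10G37530, and GLYMA03G36610. All 10 were lower at 25 than at 18 DAF in cgy-2-NIL by the edgeR test, with log2 fold changes from -6.44 for GLYMA19G01280 to -3.34 for GLYMA02G42614. At 25 DAF GLYMA09G37320 had only 3 and 9 counts in the cgy-2-NIL libraries, and GLYMA03G36610 had 6 and 13. The filter on counts may have let these genes in only through their 18 DAF libraries, so their calls are not read as support.

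The most abundant member, GLYMA07G28940, had 7704 and 7785 RPKM at 18 DAF in cgy-2-NIL, against 6226 and 6384 RPKM in DN47. At 25 DAF it had 1409 and 1469 RPKM in cgy-2-NIL, against 894 and 1157 RPKM in DN47, and at 50 DAF under 1 RPKM in every library. The fall to 25 DAF in cgy-2-NIL was -2.29 on the log2 scale (standard error 0.51, edgeR adjusted p = 0.00908). Without replicate 1 or replicate 2 of 25 DAF the size hardly moved (-2.27 and -2.31), and the call was lost (edgeR adjusted p = 0.0720 and 0.0731). By 55 DAF the gene was at the floor in cgy-2-NIL and at least 39721-fold lower than at 18 DAF.

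Abundant members did not lose their transcripts at the same pace. GLYMA17G09110 had 1058 and 784 RPKM at 18 DAF in cgy-2-NIL, 69.3 and 38.6 RPKM at 35 DAF, and no more than 0.0413 RPKM in any library from 50 DAF on. GLYMA14G34480 had 855 and 884 RPKM at 18 DAF in cgy-2-NIL, 81.1 and 67.1 RPKM at 35 DAF, and still 6.39 and 4.65 RPKM at 55 DAF. GLYMA03G28080 lay between these genes at 50 DAF, with 9.47 and 5.22 RPKM, against 28.5 and 14.2 RPKM for GLYMA14G34480. At 55 DAF it was at the floor, with 3 counts in each library. At 55 against 50 DAF in cgy-2-NIL, both GLYMA03G28080 (edgeR adjusted p = 5.81e-06) and GLYMA14G34480 (edgeR adjusted p = 0.000377) were lower. The fall of GLYMA14G34480 was 1.98 on the log2 scale. That of GLYMA03G28080 ended at the floor, so no size is given for it. The other abundant members named by rule were GLYMA07G03910, GLYMA09G36080, GLYMA02G37610, GLYMA19G30460, and GLYMA08G21390, and each of them was lower at 25 than at 18 DAF in cgy-2-NIL by the edgeR test. The call of GLYMA02G37610 was lost without any 1 of the 4 libraries of these stages, at log2 fold changes from -1.45 to -1.25, against -1.35 with every library (edgeR adjusted p between 0.106 and 0.174 in these fits). That of GLYMA09G36080 was lost without either library of 25 DAF (-2.10 and -2.21, against -2.15), and that of GLYMA18G06840, of the first 10, without replicate 1 of 25 DAF (-4.03, against -4.40).

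The list ended in a dense part of the ranking. The last 3 members were GLYMA11G10520, GLYMA01G04160, and GLYMA17G35360, with ratios of 3.76, 3.75, and 3.75, and the 3 genes just outside were GLYMA18G52830, GLYMA01G09190, and GLYMA13G23090, each with 3.73. The median ratio was 5.88 over the members and 1.10 over all 6064 genes ranked, and 37 members had a ratio of 10 or more.

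The stage differences were tested in cgy-2-NIL, whose libraries the rule did not use, with edgeR's quasi-likelihood test on the counts of its 10 libraries and Benjamini-Hochberg adjustment over the 39979 genes tested. All 150 members entered the test, and 147 of them passed the filter on counts without the 18 DAF libraries as well. The other 3 passed it only through those libraries, so a lower later level was favoured for them by the filter. They remain in all counts and medians given for the members. Up to 3 members in each count of lower members are therefore not evidence of a fall. At 25 DAF 144 members were lower than at 18 DAF, where 13.8% of all genes tested were lower, and 0 members were higher. At 35 DAF 149 were lower (26.1% of all genes), at 50 DAF 147 (34.8%), and at 55 DAF 143 (44.2%). At all 4 later stages 141 members were lower than at 18 DAF, against 8.41% of all genes tested. These libraries were not seen by the rule, although both lines share their background and stages.

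**Figure D3:**
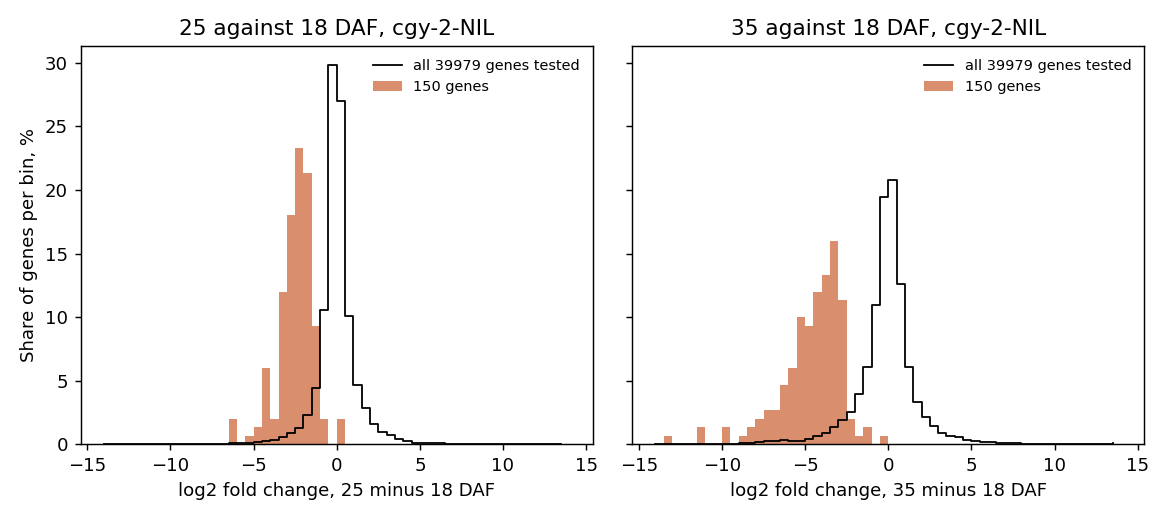
Share of genes in each bin of log2 fold change, 25 minus 18 DAF (left) and 35 minus 18 DAF (right) in cgy-2-NIL, for the 150 genes (bars) and all 39979 genes tested (black line). The medians of the 150 genes are -2.23 and -4.21, and those of all genes tested are -0.01 and 0.00.

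The size of the change also stood apart from that of all genes. The median log2 fold change of the members was -2.23 at 25 DAF and -4.21 at 35 DAF, and the medians over all genes tested were -0.01 and 0.00. At 50 and 55 DAF 82 and 108 members were at the floor and were set to their bound against 3 counts per library. The members' medians at these stages are therefore limits, of -6.77 or lower at 50 DAF and -7.41 or lower at 55 DAF. The fitted medians over all genes tested, without bounds, were -0.04 and -0.26. At 25 DAF 98 members were lower by more than 2 on the log2 scale, against 3.31% of all genes tested.

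Lists of other seed genes that the study chose on these samples show the stages from another side, and none of them holds a member. Of the genes that the paper annotates as cupins, most of them storage protein genes, 17 were tested in cgy-2-NIL. At 25 DAF 15 of these were higher and 1 was lower than at 18 DAF, while of all 39979 genes tested 6376 were higher and 13.8% were lower. Of the 13 MADS-box genes with a K-box, a family of developmental transcription factors, 5 were lower and 1 was higher at 25 DAF, and all 13 were lower at 55 DAF, where 44.2% of all genes tested were lower. Of the 28 GRAS genes, a plant family of transcriptional regulators, 5 were lower and 8 were higher at 25 DAF, and 15 were lower and 9 higher at 55 DAF. Since the study picked these genes on the same libraries, their direction is not independent evidence.

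A total of 9 members missed the threshold, or ran the other way, in cgy-2-NIL at 1 stage or more. They are GLYMA18G06840, GLYMA11G10520, GLYMA04G06410, GLYMA20G28890, GLYMA12G16380, GLYMA18G04710, GLYMA07G18150, GLYMA06G45043, and GLYMA16G32960. GLYMA04G06410 missed it at 25 DAF alone. It had 46.5 and 59.2 RPKM in cgy-2-NIL at that stage, against 16.4 and 24.5 RPKM in DN47, while at 18 DAF it had 88.6 and 84.3 RPKM in cgy-2-NIL, against 87.8 and 92.2 RPKM in DN47. The change to 25 DAF in cgy-2-NIL was -0.57 on the log2 scale (edgeR adjusted p = 0.0665), and at 35 DAF it was -3.40 (edgeR adjusted p = 1.02e-05). The miss at 25 DAF became a call with upper-quartile factors, the DESeq2 Wald test, limma-voom, all 20 libraries in the fit, and without either library of 50 DAF, with log2 fold changes from -0.64 to -0.57. The misses of GLYMA12G16380 and GLYMA16G32960 at 25 DAF, and of GLYMA18G04710, GLYMA07G18150, and GLYMA18G06840 at 55 DAF, also became calls in at least 2 of the alternatives each, all of them lower than at 18 DAF.

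GLYMA18G04710 stayed level for a week in cgy-2-NIL. At 25 DAF it had 40.6 and 37.1 RPKM in cgy-2-NIL, against 11.9 and 16.2 RPKM in DN47. At 18 DAF it had 39.1 and 44.6 RPKM in cgy-2-NIL, against 73.9 and 60.0 RPKM in DN47. The change in cgy-2-NIL was 0.03 on the log2 scale (standard error 0.46, edgeR adjusted p = 0.970), and this sign was not kept under every setting. GLYMA16G32960 had 19.4 and 20.03 RPKM at 18 DAF in cgy-2-NIL, against 34.3 and 31.5 RPKM in DN47, and at 50 DAF it had 7.49 and 1.40 RPKM in the 2 cgy-2-NIL libraries, against 0.757 and 0.326 RPKM in DN47. The cgy-2-NIL replicates of that stage lay far apart for this gene, and by 55 DAF it was at the floor and at least 125-fold lower than at 18 DAF.

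GLYMA20G28890 was not highest at 18 DAF in cgy-2-NIL, where its levels at 18 and 25 DAF overlapped. At 25 DAF it had 32.9 and 39.7 RPKM in cgy-2-NIL, against 19.6 and 23.6 RPKM in DN47. At 18 DAF it had 38.9 and 29.2 RPKM in cgy-2-NIL, against 111 and 75.1 RPKM in DN47. By the edgeR test it was lower than at 18 DAF in cgy-2-NIL at 35 DAF alone (-1.32, adjusted p = 0.00580), and at 25, 50, and 55 DAF its log2 fold changes were 0.23, -0.45, and -0.05. The identifier of this gene lies 230 above that of GLYMA20G28660, a gene of the α-subunit of β-conglycinin, on the introgressed chromosome.

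GLYMA11G10520 departed most from the rest. It had 1.43 and 1.12 RPKM at 18 DAF in cgy-2-NIL, against 44.6 and 47.5 RPKM in DN47. In DN47 it was low at 25 and 35 DAF, had 0.236 and 6.17 RPKM in the libraries of 50 DAF, and stood at 11.1 and 11.4 RPKM at 55 DAF. In cgy-2-NIL it stayed under 2 RPKM up to 50 DAF and had 0.675 and 13.3 RPKM in the 2 libraries of 55 DAF. It was thus high in 6 of the 20 libraries, and at 50 DAF in DN47 and 55 DAF in cgy-2-NIL in 1 of the 2 replicates.

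In cgy-2-NIL this gene was called higher at 55 than at 18 DAF, by 3.64 on the log2 scale (edgeR adjusted p = 0.00827). Without replicate 2 of 55 DAF the value was 0.21 (edgeR adjusted p = 0.616), so that 1 library carried the call. The 5 genes whose log2(RPKM + 1) was most like it over the 20 libraries, among 17999 others with 10 RPKM or more in some library, were GLYMA07G09100, GLYMA02G44060, GLYMA07G32580, GLYMA17G06340, and GLYMA14G05010, with Pearson correlations between 0.966 and 0.985. GLYMA07G09100 had 1.13 and 0.995 RPKM at 18 DAF in cgy-2-NIL, against 27.1 and 25.6 RPKM in DN47, and 0.471 and 9.50 RPKM at 55 DAF in cgy-2-NIL. Some genes that the paper lists with the largest differences between the lines were also like it. They were Novel00815 (0.949), GLYMA13G11895 (0.910), GLYMA13G11840 (0.909), GLYMA13G12033 (0.906), and GLYMA13G11961 (0.890). The other genes compared from that list had correlations of 0.450 or less. None of these genes is a member, and the points share their libraries, so the correlations are a description.

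**Figure D4:**
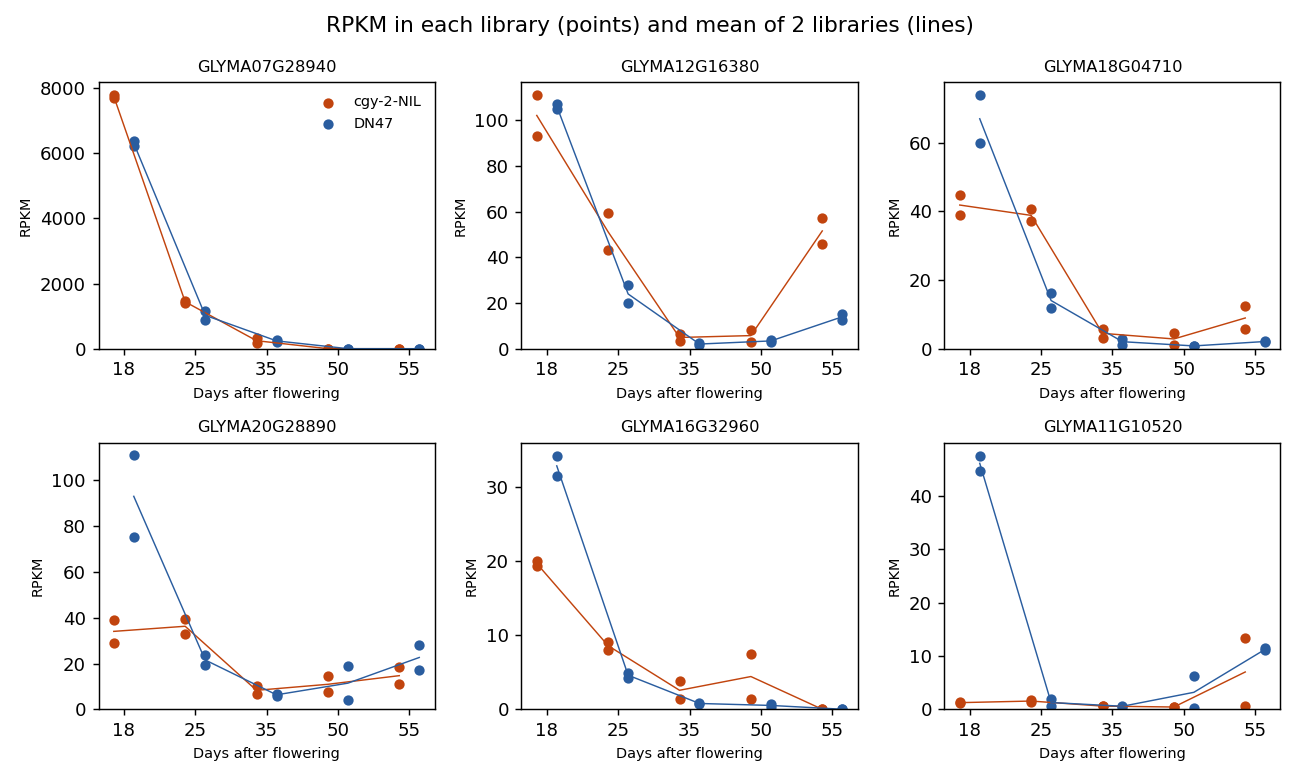
RPKM of 6 members by days after flowering, in each library (points) and as the mean of 2 libraries (lines), with cgy-2-NIL left of DN47 at each stage. GLYMA07G28940 follows the common pattern, GLYMA12G16380 has 57.4 and 45.8 RPKM at 55 DAF in cgy-2-NIL, and GLYMA11G10520 has 1.43 and 1.12 RPKM in cgy-2-NIL at 18 DAF, against 44.6 and 47.5 RPKM in DN47.

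A few members returned late. In cgy-2-NIL 10 members were higher at 55 than at 50 DAF by the edgeR test, where 26.8% of all genes tested were higher, and 38 were lower, where 32.2% were. This contrast was chosen after the values were seen. GLYMA12G16380 had 111 and 93.2 RPKM at 18 DAF in cgy-2-NIL, 6.38 and 3.46 RPKM at 35 DAF, and 57.4 and 45.8 RPKM at 55 DAF. In DN47 it had 12.6 and 15.3 RPKM at 55 DAF and 105 and 107 RPKM at 18 DAF. The 55 DAF libraries of cgy-2-NIL lay above those of DN47 for this gene, with no overlap.

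The rise of GLYMA12G16380 between 50 and 55 DAF in cgy-2-NIL was 3.14 on the log2 scale (standard error 0.39, edgeR adjusted p = 0.000115), and those of GLYMA17G35360 and GLYMA02G26610 were 2.19 (adjusted p = 1.30e-05) and 4.61 (adjusted p = 0.000135). These 3 genes were called under every alternative of the fit and without any single library. GLYMA02G26610 had 3.54 and 5.22 RPKM at 55 DAF and 0.176 and 0.175 RPKM at 50 DAF in cgy-2-NIL, and the 55 DAF libraries of DN47 had 0.371 and 0.425 RPKM. The other 7 were GLYMA18G06840, GLYMA11G10520, GLYMA16G04950, GLYMA10G07545, GLYMA18G04710, GLYMA07G18150, and GLYMA06G45043, and each of them lost its call in at least 1 of these settings. GLYMA18G06840 had 15.3 RPKM in 1 of its 55 DAF libraries in cgy-2-NIL and 2.67 RPKM in the other, and without the first the log2 fold change was 1.35 (edgeR adjusted p = 0.170).

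Levels at 18 DAF were set side by side in the 2 lines as a description, since the DN47 values entered the rule. The median ratio of the cgy-2-NIL to the DN47 mean was 1.12 (0.0276 to 2.97), with 109 members higher and 41 lower in cgy-2-NIL. The 2 cgy-2-NIL libraries lay above both DN47 libraries in 79 members (52.7%) and below both in 12 (8%). Among the 6493 genes with 20 RPKM or more at 18 DAF in either line, these shares were 34.2% and 38.0%. The ratio was above 1.5 in 30 members and under 1/1.5 in 6. Of the 5795 ranked genes outside chromosome 20, which include 142 members, 1.66% were above 1.5 and 3.66% under 1/1.5.

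**Figure D5:**
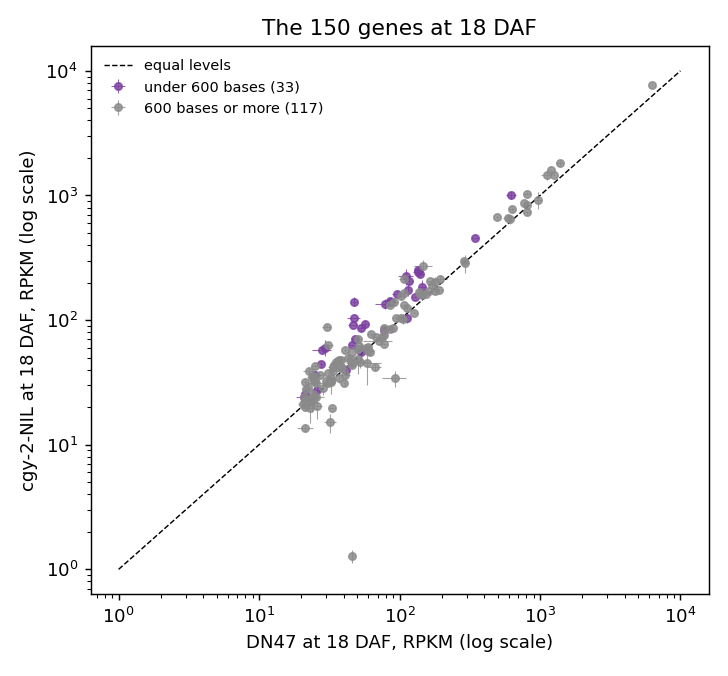
Mean RPKM at 18 DAF in cgy-2-NIL (vertical) against DN47 (horizontal), on log scales, for the 150 genes, with lines to both libraries of each group and the dashed line at equal levels. Genes under 600 bases (purple) lie mostly above the line, with a median ratio of 1.60, and 1 gene, GLYMA11G10520, lies far below it.

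The highest ratios at 18 DAF were those of GLYMA15G34166, GLYMA20G29080, GLYMA18G40031, GLYMA05G24945, and GLYMA11G27312. GLYMA15G34166 had 153 and 129 RPKM in cgy-2-NIL, against 45.8 and 49.2 RPKM in DN47. GLYMA20G29080 had 85.7 and 90.8 RPKM in cgy-2-NIL, against 32.7 and 27.8 RPKM in DN47. The groups did not overlap for any of the 5, and 4 of them are under 600 bases long, GLYMA20G29080 being the exception. The lowest ratios were those of GLYMA11G10520, GLYMA20G28890, GLYMA06G45043, GLYMA16G32960, and GLYMA18G04710, and the groups did not overlap for these genes either. GLYMA06G45043 had 12.5 and 17.7 RPKM in cgy-2-NIL, against 35.3 and 29.0 RPKM in DN47.

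Gene length moved with the difference between the lines. The members were shorter than the other genes ranked, with a median length of 1240 bases against 1549, and 33 of them (22%) were under 600 bases, against 3.09% of the others. At 18 DAF the median ratio of cgy-2-NIL to DN47 was 1.60 over these 33 short members and 1.09 over the 117 longer ones. Over the other genes ranked it was 1.04 for the 183 short and 0.980 for the 5731 longer ones. In the 4 pairs of 1 cgy-2-NIL and 1 DN47 library, the median of the short members ran from 1.38 to 1.71 and that of the longer members from 1.07 to 1.17. The limit of 600 bases was set after the values were seen, and the part of length or of library preparation in this difference was not tested.

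At 25 DAF the members were higher in cgy-2-NIL in 145 cases of 150, and the cgy-2-NIL libraries lay above both DN47 libraries in 123 (82%), against 45.7% of the 6493 genes. The rule favoured genes with low DN47 means at the later stages, so a lower DN47 value at 25 DAF is in part set by the choice. At 35 DAF 122 members were higher and 25 lower in cgy-2-NIL, and of the 6493 genes 4497 were higher and 1990 lower. The cgy-2-NIL libraries lay above both DN47 libraries in 54% of the members at that stage, against 47.2% of these genes. At 50 DAF 47 members were higher and 56 lower, with 2793 of the 6493 genes higher and 3613 lower. At 55 DAF 23 members were higher and 62 lower, with 2347 of the genes higher and 3995 lower, and most members were near or at the floor at both stages.

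The same rule applied to the cgy-2-NIL columns took 114 of the 150 members again, which is 76% of each list. The first 10 genes of the lines shared 6, and the first 50 shared 40. In cgy-2-NIL 139 members stood within the first 300 ranks, and 6 fell under 20 RPKM at 18 DAF and were not ranked. Among the members, the largest ratios of 18 DAF to later stages in cgy-2-NIL were those of GLYMA09G37320, GLYMA19G01280, GLYMA10G40300, GLYMA03G36610, and GLYMA08G19460, which ranked from 2 to 6 in that line. GLYMA08G19460 ranked 14th in DN47. GLYMA08G19460 had 139 and 141 RPKM at 18 DAF in cgy-2-NIL, against 98.0 and 84.4 RPKM in DN47, and stayed between 0.832 and 2.21 RPKM in cgy-2-NIL from 35 DAF on.

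The members were spread over all 20 chromosomes, as read from their identifiers. Chromosome 18 held 14 members, or 5.17% of the genes ranked on it, and chromosomes 8 and 13 held 13 each (2.81% and 3.03%). There were 9 runs of members with close identifiers, which held 19 members. The longest was GLYMA11G27296, GLYMA11G27304, and GLYMA11G27312 on chromosome 11, genes of 541, 502, and 515 bases. Their means at 18 DAF were 183, 135, and 225 RPKM in cgy-2-NIL, and 145, 78.2, and 111 RPKM in DN47. Reads of near-identical neighbours can be left out or divided by the counting, so the levels within a run are uncertain.

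Chromosome 20, which carries the introgression, held 8 members. GLYMA20G28472, GLYMA20G28890, and GLYMA20G29080 have identifiers within 1000 of that of the α-subunit gene GLYMA20G28660, and their ratios of cgy-2-NIL to DN47 at 18 DAF were 1.25, 0.366, and 2.91. Of the 27 ranked genes in this window, 1 had a ratio above 1.5 and 1 a ratio under 1/1.5, and these were the members GLYMA20G29080 and GLYMA20G28890. Over the 5795 ranked genes of the other chromosomes, 1.66% had a ratio above 1.5 and 3.66% a ratio under 1/1.5. The window was chosen after the values were seen, the ends of the introgressed segment in these identifiers are not known here, and the part of the segment in these levels was not tested.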

How the data were processed

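Whole developing seeds of both lines were sequenced as paired-end reads. The authors counted reads per gene of Ensembl Plants release 23 with HTSeq v0.6.1 and deposited whole-number counts without normalization. They also deposited RPKM values, each of which is the count over a fixed gene length and the total of the library (largest relative deviation 5.95e-15 over 612587 values). Aligner and strandedness are not given in the sources used here, and reads of overlapping or near-identical genes cannot be assigned with certainty. The members and lists were chosen with earlier results of these data known.

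Levels are RPKM, with the mean of 2 libraries. Counts of the 10 cgy-2-NIL libraries were analysed in edgeR 4.0.16 under R 4.3.3 (filterByExpr, TMM factors, robust quasi-likelihood F test, 1 mean per stage, 5 residual degrees of freedom). Contrasts were a later stage minus 18 DAF, with an adjusted p threshold of 0.05. Fold changes against a group with at most 3 counts in each library are lower bounds against 3 counts per library. The standard error is the size of the log2 fold change divided by the square root of F. The p-values rest on 2 samples per group. Counts were also simulated with 100 genes raised 4-fold and 100 raised 16-fold at 18 DAF, and all others level over the stages. The procedure called all 100 of the 4-fold genes at 25 against 18 DAF and 11 unchanged genes among 38163. The changed genes were drawn from those with higher counts. In the real libraries 5522 genes were lower and 6376 higher at 25 DAF, so the simulation gives no error rate for the real contrasts or for genes at the floor.

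By rule, the genes named are the 10 ranked first, the 10 most abundant in DN47, the 3 on each side of the end of the list, the 5 with the highest and the lowest line ratio (1 RPKM added), the 5 with the largest and smallest ratio of 18 DAF to later stages in cgy-2-NIL, and 5 that missed the threshold there. All 9 that missed it, the 10 that rose at 55 DAF, the run on chromosome 11, and the members near GLYMA20G28660 were named after their values were seen. Alternatives were DESeq2 1.42.0 size factors and Wald test, limma-voom (limma 3.58.1), upper-quartile factors, TMM without 18 cupins, all 20 libraries in 1 fit, filters, thresholds, the replicate number as a block, single libraries left out, and other settings of the rule. None of the 59048 genes of the reference annotation carried an identifier of the tables, so groups by function were not counted and no coordinates or sequences are given. Python 3.11.15 with matplotlib 3.10.9, pandas 2.3.3, and numpy 2.4.6 drew the figures.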

Additional observations from a re-analysis of the deposited data

Results flagged for a closer look

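GLYMA11G10520 was flagged for its levels at 18 and 25 DAF. The rule chose for a fall in DN47, and cgy-2-NIL showed no clear change. Both cgy-2-NIL libraries of 25 DAF (1.44 and 1.70 RPKM, mean 1.57) lay above both of 18 DAF (1.43 and 1.12 RPKM), while both DN47 libraries of 25 DAF (0.683 and 1.90 RPKM) lay below both of 18 DAF (44.6 and 47.5 RPKM). The difference between the lines was not tested. The cgy-2-NIL step alone was 0.45 on the log2 scale (standard error 1.03) and did not pass the threshold (edgeR adjusted p = 0.783).

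Gene models without a GLYMA identifier were outside the rule. Of the 24 such models with 20 RPKM or more at 18 DAF in DN47, 2 had a ratio above that at the end of the list. Novel02831 had a mean of 734 RPKM at 18 DAF in cgy-2-NIL, against 445 RPKM in DN47, and was at 0 at 55 DAF in both lines. Novel02123 had 73.6 RPKM in cgy-2-NIL, against 37.5 RPKM in DN47, and was at 0 from 50 DAF on.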

How the results depend on the processing

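The number of members lower than at 18 DAF in cgy-2-NIL stayed within 1.5 times its value at every stage under the other normalizations, tests, filters, and samples in the fit. A log2 fold change above 2 left 98 members at 25 DAF and 96 at all 4 stages. With 1 library left out, the count ran from 128 to 147 at 25 DAF, 147 to 149 at 35 DAF, 146 to 147 at 50 DAF, 143 to 146 at 55 DAF, and 127 to 143 at all 4 stages. The count of members higher at 55 than at 50 DAF was 10, and it was 4 at an adjusted p under 0.01, 6 with a log2 fold change above 2, 5 with limma-voom, and 5 to 10 with 1 library left out. It was 6 without either library of 50 DAF and 5 without replicate 1 of 55 DAF. The cause was not tested, except that the stricter thresholds call fewer genes by construction.

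The rule took 79 of the 150 members again with a minimum of 50 RPKM, which leaves fewer genes to rank, 108 with TMM-scaled RPKM, 106 with a minimum of 10 RPKM, and 138 to 141 with 1 DN47 replicate left out. The median ratio of cgy-2-NIL to DN47 at 18 DAF ran from 1.10 to 1.19 with 1 library left out and was 1.27 for the members chosen in cgy-2-NIL, of which 127 were higher and 23 lower. The numbers higher and lower ran from 107 to 116 and from 34 to 43 with 1 library left out. Signs changed only for uncalled values. With upper-quartile factors the log2 fold change of GLYMA18G04710 at 25 DAF was -0.0296 and that of GLYMA12G16380 at 55 against 18 DAF was -0.0773. With 1 library left out, that of GLYMA18G04710 at 25 DAF ran from -0.0587 to 0.129, and those at 55 against 18 DAF ran from -0.435 to 0.238 for GLYMA20G28890 and from -0.363 to 0.150 for GLYMA06G45043. The size factors of DESeq2 shifted the members' log2 fold changes by -0.13 at 50 DAF.

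No pairing of libraries by replicate number was seen: the 10 correlations of replicate differences between stages of cgy-2-NIL lay between -0.0438 and 0.0932. Each difference rests on 2 single libraries and all genes tested, so these values cannot exclude pairing. With the replicate block the members lower than at 18 DAF numbered 144, 149, 147, and 143 at 25, 35, 50, and 55 DAF, and those higher at 55 than at 50 DAF numbered 8. With 2 libraries per group, levels under about 3 counts cannot be told from 0.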
